A study of Sus scrofa with 13 samples.

Results

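The DEAD box (DDX) and DEAH box (DHX) helicases are enzymes that use ATP to open RNA duplexes or to strip proteins from RNA. Here they were followed in messenger RNA of pig embryos before implantation. Members were all genes of the deposited table whose symbol is DDX or DHX followed by a number, which gave 53 of 28232 genes, 37 named DDX and 16 named DHX. Only the symbol chose them, but the family was proposed with earlier results of these data known, so counts over the family are descriptions.

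Pools of whole embryos of Sus scrofa were sequenced to compare stages and to set embryos made by in vitro fertilisation (IVF) against embryos that developed in the animal. Of the 5 groups, 3 came from IVF: embryos of 4 cells, blastocysts, and blastocysts after hatching, with 3 libraries each. The other two were in vivo blastocysts and in vivo hatched blastocysts, with 2 libraries each. A blastocyst has a fluid-filled cavity, and a hatched one has left the zona pellucida, the coat of the egg. No group carried a genetic change or a drug treatment in the labels, and there was no 4-cell group developed in vivo among the samples. The breed, the size of a pool and the animals or rounds of fertilisation behind each library are not given in the sources used here. A p-value therefore covers the spread of the libraries alone, which may be technical.

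Helicases of this family act at every step in the life of an RNA. Some prepare ribosomal RNA in the nucleolus, some drive the rearrangements of the spliceosome, some release messages at the nuclear pore, and others repress, translate or degrade messages in the cytoplasm. A few recognise foreign double-stranded RNA and start the interferon response, and a few are known mainly from germ cells. In early embryos the egg's stored messages are replaced by messages of the embryo's own genome, so the level of a helicase message at the 4-cell stage can include message left from the egg.

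Total counts lay between 33259311 and 39273867 per library. Markers of trophectoderm, the outer epithelium of the blastocyst, summed to between 20745 and 39318 CPM (counts scaled to library size, here with TMM factors) in blastocyst and hatched libraries and to between 100 and 624 CPM in 4-cell libraries, where CDX2 and KRT18 were at 0. Oocyte markers summed to between 13772 and 23124 CPM in 4-cell libraries and to no more than 10.8 CPM elsewhere. A pair of libraries needs care. The first 4-cell library stood apart on the second principal component of all genes (119.79, against -47.75 and -54.27 for the other two), and library 2 of the in vivo hatched blastocysts had 6.85% of its counts in mitochondrial messages against 1.49% in the unnumbered library, so called because its count column has no replicate number. The group's labels number its samples 1 and 2, so by elimination it would be library 1, a number not used here.

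The 53 helicases together took 0.269% to 0.33% of the counts in IVF blastocysts, 0.287% to 0.307% in IVF hatched blastocysts, and 0.331% and 0.383% in the 2 libraries of in vivo blastocysts. The share was 0.579% in library 2 of the in vivo hatched blastocysts and 0.437% in the unnumbered library, both above all other blastocyst and hatched libraries. In 4-cell embryos it was 0.812% in the first library, against 0.355% and 0.386% in the others. A share of the counts cannot tell fewer cells of a type from less RNA per cell, and this holds for every value below.

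Of the 53 genes, 46 had counts in all 13 libraries. The 7 others were DDX25, DDX28, DDX51, DDX53, DDX58, DDX60 and DHX58. DDX53, known from testis and tumours, had 0 counts in all 13 libraries and appears in no comparison.

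**Figure D1:**
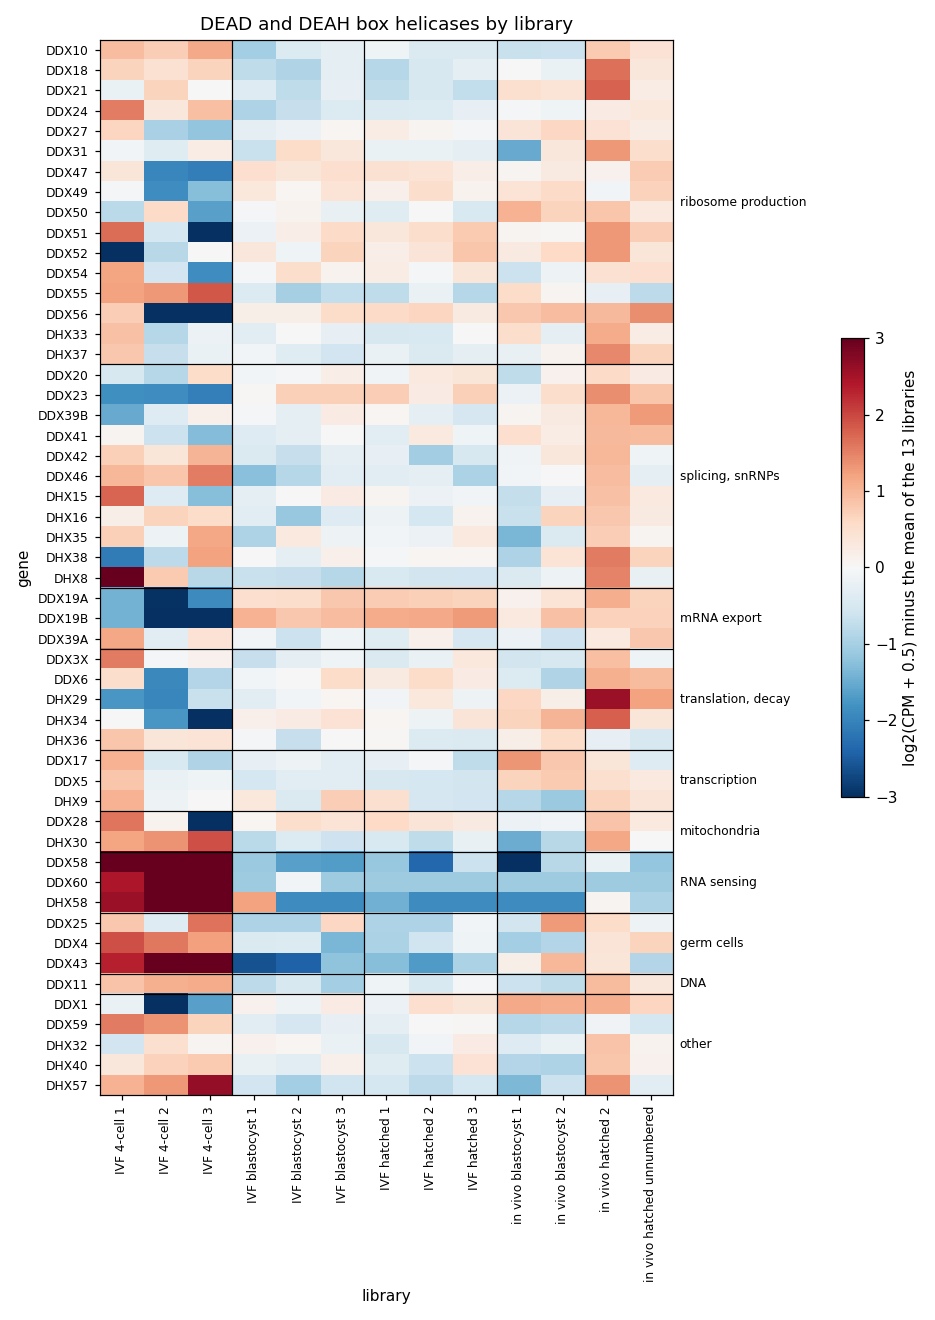
Level of 52 helicases (rows, grouped by role) in the 13 libraries (columns), as log2(CPM + 0.5) minus the gene's mean over the 13 libraries; DDX53, with 0 counts, is left out. DDX58, DDX60, DHX58 and DDX43 are dark red in the 4-cell columns, DDX19A and DDX19B are blue there, and the column of in vivo hatched library 2 is red for most rows.

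Levels of different genes can be compared only per length, for which the deposited FPKM values serve. On that scale DDX39A, which takes part in export of messages from the nucleus, had the highest mean of all members in each group. It stood at 480 ± 309 FPKM in 4-cell embryos, 219 ± 45.3 in IVF blastocysts, 218 ± 44.1 in IVF hatched blastocysts (SD, n = 3 each) and 194 ± 26.1 in in vivo blastocysts (SD, n = 2). For in vivo hatched blastocysts only library 2 was read on this scale, and DDX39A had 333 FPKM there, with DDX39B next at 155 FPKM. In each IVF group its libraries lay above those of the next member. In in vivo blastocysts its range of 175 to 212 FPKM overlapped that of DDX5, 148 to 186 FPKM. DDX5, a cofactor of transcription and of microRNA processing, stood among the highest 3 in every group, with DDX49 and DDX39B close by in IVF blastocysts. In in vivo blastocysts the range of DDX5 lay above that of DDX49, the next member, at 81 to 101 FPKM. DDX49 (79.8 ± 10.4 FPKM), DDX5 (78.9 ± 6.84 FPKM) and DDX39B (74.6 ± 15.5 FPKM) had overlapping ranges in IVF blastocysts (SD, n = 3), so their order is not resolved.

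From the 4-cell stage to the IVF blastocyst the RNA sensing helicases DDX58 and DDX60 and the germ cell helicase DDX43 fell furthest among members called, and the nuclear pore helicases DDX19A and DDX19B rose furthest. With an adjusted p under 0.05 in the quasi-likelihood test of edgeR, 4 members were higher in blastocysts and 16 were lower, of 52 tested. At this step 25.7% of all genes tested were called higher and 30.6% lower, 56.3% in all. The median log2 fold change was -0.55 over members and -0.23 over all genes tested. With other scaling factors (RLE) these medians were -0.62 and -0.30, and the same 20 members were called.

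DDX58 encodes RIG-I, a receptor for viral RNA in the cytoplasm, and lies on chromosome 10 (33891720 to 33976151, build Sscrofa11.1). Its level was 56.1, 97.3 and 168 CPM in the 4-cell libraries, 1.37, 0.806 and 0.761 CPM in IVF blastocysts and 1.33, 0.29 and 2.07 CPM in IVF hatched blastocysts. In vivo it was 0 and 1.78 CPM in blastocysts and, in hatched blastocysts, 3.02 CPM in library 2 and 1.32 CPM in the unnumbered library. Every 4-cell library was therefore far above all 10 others, and the mean of the 4-cell libraries was 109 times that of IVF blastocysts. The log2 fold change from 4-cell to IVF blastocyst was -6.79 ± 0.84 (SE, adjusted p = 0.000297). The gene overlaps ACO1 in the annotation, and the use of strand in counting is not known here.

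DHX58 encodes LGP2, a relative of RIG-I that lacks its signalling domains and tunes the response. It stood at 10.6, 46.3 and 64.4 CPM in the 4-cell libraries and at 3.72, 0 and 0 CPM in IVF blastocysts. Elsewhere its level was 0.177, 0 and 0 CPM in IVF hatched blastocysts, 0 in both in vivo blastocyst libraries, and 1.44 and 0.452 CPM in in vivo hatched blastocysts. The mean of the 4-cell libraries was 482-fold higher than a floor of 3 counts in each in vivo blastocyst library. The ranges of 4-cell and IVF blastocyst libraries were apart, but the change of -5.04 ± 2.05 did not pass the test (SE, adjusted p = 0.0617), and without the first 4-cell library it did (adjusted p = 0.0369).

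DDX60, an interferon-induced helicase, followed the same order at a lower level. It had 5.15, 8.1 and 19.3 CPM in the 4-cell libraries, and among the 10 others a count only in 1 IVF blastocyst library, at 0.484 CPM. Its log2 change to the IVF blastocyst was -6.06 ± 1.85 (SE, adjusted p = 0.027), and of 6 fits that each left out 1 library 3 called it, with adjusted p of up to 0.068. Against the floor, the mean of the 4-cell libraries was at least 125-fold higher than IVF hatched blastocysts, 130-fold than in vivo blastocysts and 127-fold than in vivo hatched blastocysts.

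Other genes of the RIG-I pathway and interferon response went in both directions. In a list of 31 symbols, 27 were in the table and 22 were tested, of which 7 rose and 7 fell towards the blastocyst (median log2 fold change 0.72). MX1, an antiviral GTPase, fell (53, 97.4 and 234 CPM in 4-cell libraries against 0, 0.618 and 0.282 CPM in IVF blastocysts, log2 fold change -8.75 ± 1.56, adjusted p = 0.0017), as did the interferon receptor chain IFNAR1 (-3.70 ± 0.49, adjusted p = 0.000402). BST2, an antiviral membrane protein, rose (9.72 ± 1.41, adjusted p = 0.00135). IFIH1 was chosen for naming after its values were seen. This gene, which encodes MDA5, the other main RNA receptor of this class, went the opposite way from DDX58: it had 0, 0.257 and 0 CPM in 4-cell libraries and 12.7, 6.61 and 9.19 CPM in IVF blastocysts (log2 fold change 6.72 ± 1.37, SE, adjusted p = 0.00329).

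DDX43 and DDX4, helicases of germ cells, were also highest at the 4-cell stage. DDX43, known from testis and tumours, had 40.2, 70.4 and 134 CPM in the 4-cell libraries, 0.819, 0.994 and 2.99 CPM in IVF blastocysts and 2.81, 2 and 3.66 CPM in IVF hatched blastocysts. In vivo it had 8.57 and 15.6 CPM in blastocysts and 9.87 and 3.91 CPM in library 2 and the unnumbered library of hatched blastocysts. All 3 4-cell libraries lay above the 10 others, and the log2 fold change to the IVF blastocyst was -5.69 ± 0.74 (SE, adjusted p = 0.000374).

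DDX4, the germ cell marker also called VASA, had 14.7, 11.3 and 8.84 CPM in 4-cell libraries and 2.43, 2.5 and 1.04 CPM in IVF blastocysts. In hatched blastocysts it had 1.57, 2.11 and 3.12 CPM after IVF and 4.65 and 5.78 CPM in vivo, and in in vivo blastocysts 1.45 and 1.64 CPM. It fell from 4-cell to IVF blastocyst by 2.56 on the log2 scale (SE 0.59, adjusted p = 0.00563). DDX25, a testis helicase, stayed at or below 2.46 CPM in all 13 libraries and was called in no comparison.

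**Figure D2:**
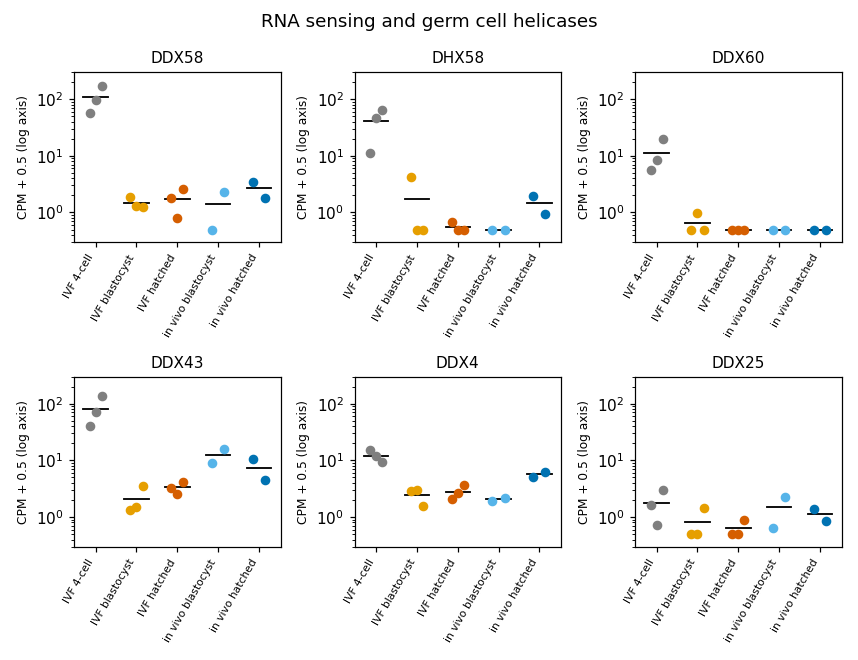
CPM + 0.5 (log axis) of 3 RNA sensing helicases and 3 germ cell helicases in the 5 groups; points are libraries and lines are group means. The 4-cell points lie above all others for DDX58, DHX58, DDX60, DDX43 and DDX4, and overlap the other groups for DDX25.

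The nuclear pore helicases DDX19A and DDX19B, which release proteins from messages as they leave the nucleus, went the other way. They are neighbours on chromosome 6, separated by 10498 bases with no annotated gene between them, and reads shared between such near copies may have been split. DDX19B had 15.2, 2.34 and 2.97 CPM in 4-cell libraries and 86.7, 73.5 and 79.2 CPM in IVF blastocysts (log2 fold change 3.51 ± 0.70, SE, adjusted p = 0.00291). DDX19A went from 30.2, 9.97 and 21.4 CPM to 116, 117 and 143 CPM (2.59 ± 0.41, SE, adjusted p = 0.000966). For both genes every 4-cell library lay below all 10 others. NUP214, the pore protein that binds these helicases, was listed among 43 partners and activators and fell, from 629, 484 and 711 CPM to 7.63, 6.23 and 13.3 CPM (log2 fold change -6.09 ± 0.57, SE, adjusted p = 7.14e-05). Of the 41 partners tested, 7 rose and 12 fell (median -0.27).

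Among the 11 members that act in splicing or in assembly of its small nuclear RNA particles, 1 rose and 4 fell. DDX23, which helps to bring the U5 particle into the spliceosome, rose from 12.9, 12.7 and 11.2 CPM to 49, 78 and 78.3 CPM (log2 fold change 2.45 ± 0.33, SE, adjusted p = 0.000415). The U2 particle helicases DDX46 (-1.96, adjusted p = 0.0028) and DDX42 (-1.22, adjusted p = 0.0117) and the spliceosome activator DHX16 (-1.11, adjusted p = 0.0316) fell, with 4-cell ranges above the blastocyst ranges. DHX8, which releases the spliced message, was called lower (-2.74 ± 0.87, SE, adjusted p = 0.0238) although its ranges overlapped: 134, 25.4 and 7.88 CPM at the 4-cell stage and 8.96, 8.76 and 7.75 CPM in IVF blastocysts. Without the first 4-cell library the value was -0.87 and the call was lost (adjusted p = 0.128).

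Of the 16 members that work on ribosomal RNA, 4 fell and none was called higher. They were DDX55 and DDX18, of the large ribosomal subunit pathway, DDX24, and DDX10, of the small subunit pathway. DDX55 went from 207, 218 and 323 CPM to 66.2, 44.2 and 52.6 CPM (log2 fold change -2.22 ± 0.34, SE, adjusted p = 0.000773). DDX18, DDX24 and DDX10 had log2 fold changes of -1.24, -1.71 and -1.51 (adjusted p of 0.00673, 0.00369 and 0.00464), and their ranges were apart. The nucleolar helicase DDX21 had a value of -0.69 and was not called (adjusted p = 0.0989).

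In the remaining roles 1 rose and 4 fell. DHX29, which helps ribosomes through structured leaders, rose from 4.5, 3.83 and 10 CPM to 13, 15.3 and 16.8 CPM (log2 fold change 1.28 ± 0.47, SE, adjusted p = 0.0419). Of 6 fits that each left out 1 library 2 called DHX29, with adjusted p of up to 0.108. DHX30, of the mitochondrial ribosome pathway, fell from 88.5, 99.4 and 150 CPM to 21.9, 29.1 and 25 CPM (-2.17 ± 0.33, SE, adjusted p = 0.000806). DHX57 (-2.63), DDX11, which acts in chromosome cohesion (-1.91), and DDX59 (-1.66) fell as well, with adjusted p of 0.00186, 0.00449 and 0.00398. The stored-message repressor DDX6 (0.59 ± 0.58, SE, adjusted p = 0.415) and the X-linked DDX3X, a helicase of translation (-1.12 ± 0.46, SE, adjusted p = 0.0644), were not called.

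The first 4-cell library differed from the other two for many members. It held the highest of the 3 values for 27 of 52 members (51.9%), and for 29.8% of all 18515 genes. DDX56, a nucleolar helicase, had 130 CPM there and 5.78 and 5.99 CPM in the other 4-cell libraries, against 88 to 114 CPM in IVF blastocysts. DHX15, which takes spent spliceosomes apart, had 517 CPM there and 117 and 63.1 CPM in the others. Without this library 31 members were called, 14 higher and 17 lower, where 66% of all genes were called, 32.4% higher and 33.6% lower. The members then called higher in addition were DDX1, DDX27, DDX41, DDX47, DDX49, DDX54, DDX56, DDX6, DHX15 and DHX34.

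Between IVF blastocysts and IVF hatched blastocysts no helicase was shown to change. Of 51 members tested none was called by edgeR, none had an unadjusted p under 0.05, and DESeq2 called none. Over all genes 0.0451% were called by edgeR, 594 had an unadjusted p under 0.05, and DESeq2 called 51. The median log2 fold change of members was 0.08. Among the high members, DDX5 had 202, 234 and 232 CPM before and 211, 205 and 201 CPM after hatching, and DDX39B had 136, 116 and 169 CPM before and 148, 117 and 101 CPM after.

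IVF blastocysts had less of 5 helicase messages than in vivo blastocysts and more of none, of 51 tested, where 6.09% of all genes were called higher and 4.74% lower after IVF. The 5 were DDX5 and its close relative DDX17, the tRNA ligase complex helicase DDX1, the germ cell helicase DDX43 and the nucleolar DDX55. Over all members the median log2 fold change was -0.04 and 25 of 51 values were above 0, against a median of 0.05 over all genes.

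DDX5 lies on chromosome 12 (14571712 to 14580740) and had 202, 234 and 232 CPM in IVF blastocysts and 466 and 507 CPM in in vivo blastocysts. In IVF hatched blastocysts it had 211, 205 and 201 CPM, and in in vivo hatched blastocysts 412 CPM in library 2 and 362 CPM in the unnumbered library. Every IVF library of either stage lay below every in vivo library. The log2 fold change of IVF against in vivo was -1.12 ± 0.17 in blastocysts (SE, adjusted p = 0.00456) and -0.88 ± 0.17 in hatched blastocysts (SE, adjusted p = 0.00871), and DDX5 was the only member called at both stages.

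DDX17 had 60.9, 65.3 and 57 CPM in IVF blastocysts and 182 and 128 CPM in in vivo blastocysts (log2 fold change -1.34 ± 0.28, SE, adjusted p = 0.0147). Unlike DDX5 it was near the IVF level in in vivo hatched blastocysts (92.9 and 55.2 CPM, against 61.1, 68.9 and 42.5 CPM in IVF hatched blastocysts), where ranges overlapped and the value was -0.33 ± 0.28 (SE, adjusted p = 0.483). DDX1 had 244, 199 and 265 CPM after IVF and 493 and 476 CPM in vivo (-1.03 ± 0.24, SE, adjusted p = 0.0208). In hatched blastocysts its ranges were also apart, 197 to 317 CPM against 345 and 477 CPM, but the difference was not called (-0.60 ± 0.24, SE, adjusted p = 0.128). DDX43 had 0.819, 0.994 and 2.99 CPM after IVF and 8.57 and 15.6 CPM in vivo (log2 fold change -2.91 ± 0.63, SE, adjusted p = 0.0166). DDX55 had 66.2, 44.2 and 52.6 CPM after IVF and 130 and 94.1 CPM in vivo (-1.04 ± 0.28, SE, adjusted p = 0.038).

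Calls at this stage rested on few libraries. Without library 1 of the in vivo blastocysts 2 of the 5 members were called, DDX5 and DDX43, without library 1 of the IVF blastocysts DDX5 and DDX17, and without its library 2 the same pair with DHX9 called higher. With all 13 libraries in 1 fit no member was called in this comparison, in that of hatched blastocysts or in in vivo hatching.

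A list of other RNA helicases, outside the symbol pattern, was read beside the members. Of 25 tested, 1 was higher and 3 were lower in IVF blastocysts (median -0.22). EIF4A1, the DEAD box helicase of translation initiation, had 514, 450 and 566 CPM after IVF and 1044 and 1156 CPM in vivo (log2 fold change -1.10 ± 0.21, SE, adjusted p = 0.0106). SNRNP200, which unwinds the U4 and U6 RNAs in the spliceosome, was lower (log2 fold change -1.16 ± 0.31, SE, adjusted p = 0.0339), as was IGHMBP2 (-1.09 ± 0.27, SE, adjusted p = 0.0277). Among the 41 partners 1 was higher and 9 were lower (median -0.31), GPKOW, GLE1 and SUGP1 with the smallest p (log2 fold changes of -1.70, -0.97 and -1.08).

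In hatched blastocysts 9 helicase messages were lower after IVF than in vivo, and most of the others had fitted values on the same side. Of 51 members 48 had a log2 fold change below 0, with a median of -0.71, while 48% of all genes tested lay below 0 with a median of 0.04. The test called 9 members lower and none higher, where 4.88% of all genes were called lower and 6.96% higher. Of the 16 ribosome production members all 16 were below 0 and 4 were called, of the 11 splicing members all 11 were below 0 and 3 were called, and DHX29 and DDX5 completed the 9. The 3 members above 0 were DDX19B (0.51), DDX59 (0.26) and DHX36 (0.15), none of them called. Markers of hypoblast, the inner lining of the blastocyst, moved with this comparison: 5 of 7 were called lower after IVF (median log2 fold change -4.12), and their summed level was 145 to 213 CPM in IVF and 236 to 714 CPM in in vivo hatched blastocysts. Their part in the helicase values was not tested.

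DDX21, a nucleolar helicase of ribosomal RNA transcription and processing on chromosome 14 (72039985 to 72063778), had 39.1, 47.8 and 40.2 CPM in IVF hatched blastocysts. In in vivo hatched blastocysts it had 229 CPM in library 2 and 78 CPM in the unnumbered library, and in in vivo blastocysts 93.6 and 89.4 CPM. The libraries of the 2 hatched groups were apart, with the unnumbered library well below library 2. The log2 fold change was -1.83 ± 0.35 (SE, adjusted p = 0.00825), and -0.87 ± 0.26 without library 2 (SE, adjusted p = 0.115). Its neighbour DDX50, a close relative 8988 bases away with no annotated gene between, had 10.3, 13.6 and 9.64 CPM after IVF and 24 and 16.4 CPM in vivo, and was not called (-0.82 ± 0.29, SE, adjusted p = 0.0891).

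DDX18 had 76.7, 100 and 114 CPM in IVF hatched blastocysts, and 440 CPM in library 2 and 177 CPM in the unnumbered library in vivo (log2 fold change -1.64 ± 0.34, SE, adjusted p = 0.0111). Without library 2 its value was -0.86 ± 0.30 (SE, adjusted p = 0.167). DHX37, of the small ribosomal subunit pathway, had 8.34, 7.07 and 8 CPM against 27.3 and 15.6 CPM (-1.43 ± 0.33, SE, adjusted p = 0.0175). The DHX37 call was lost in 5 of 11 alternatives, among them without IVF hatched library 2 or 3. DDX10 had 26, 21 and 21.1 CPM against 49.7 and 39 CPM (-0.93, adjusted p = 0.0461). The DDX10 call was lost when any 1 of the IVF hatched libraries was left out, and over all alternatives its value lay between -1.09 and -0.77. In all 3 genes the in vivo libraries lay above the IVF libraries, with library 2 the higher of the pair.

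DDX39B, which takes part in splicing and in loading the export machinery onto messages, was called with any 1 IVF hatched library left out. Its call was lost when replicate numbers were added to the fit, which leaves out the unnumbered library. The fit of all 13 libraries lost it too, and over all alternatives the value lay between -1.5 and -1.18. It had 148, 117 and 101 CPM in IVF hatched blastocysts and 285 CPM in library 2 and 344 CPM in the unnumbered library in vivo. The log2 fold change was -1.34 ± 0.23 (SE, adjusted p = 0.00467) and -1.49 ± 0.27 without library 2 (SE, adjusted p = 0.0148). It overlaps MCCD1 in the annotation. DDX41, of the late spliceosome, had 50.7, 77 and 57.8 CPM against 125 and 123 CPM (-0.97 ± 0.23, SE, adjusted p = 0.0209), and it overlaps DOK3. The DDX41 call was lost in 5 of 11 alternatives, among them without IVF hatched library 1 or 3. DHX8 had 10.4, 9.82 and 9.64 CPM against 41.6 CPM in library 2 and 12.4 CPM in the unnumbered library (-1.41 ± 0.41, SE, adjusted p = 0.0447). The DHX8 call was lost when any 1 of the IVF hatched libraries was left out. Without library 2 its value was -0.31 ± 0.35 and was not called (SE, adjusted p = 0.729).

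DHX29 had the largest log2 difference among the 9. It stood at 15.3, 20.2 and 14.6 CPM in IVF hatched blastocysts and at 100 CPM in library 2 and 37.9 CPM in the unnumbered library in vivo (log2 fold change -2.01 ± 0.36, SE, adjusted p = 0.00569). Without library 2 the value was -1.17 ± 0.32 and the call was lost (SE, adjusted p = 0.0803). DHX29 overlaps SKIV2L2, another RNA helicase gene, and a locus without a proper name, so some of its counts may belong to them.

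Without library 2 of the in vivo hatched blastocysts, DDX39B was the only member called, and 42 of 52 members lay below 0 with a median of -0.40. Without the unnumbered library 13 members were called, 46 of 52 lay below 0 and the median was -0.93. Library 2 was above the unnumbered one for 42 of 52 members (80.8%), against 43.8% of all genes.

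**Figure D3:**
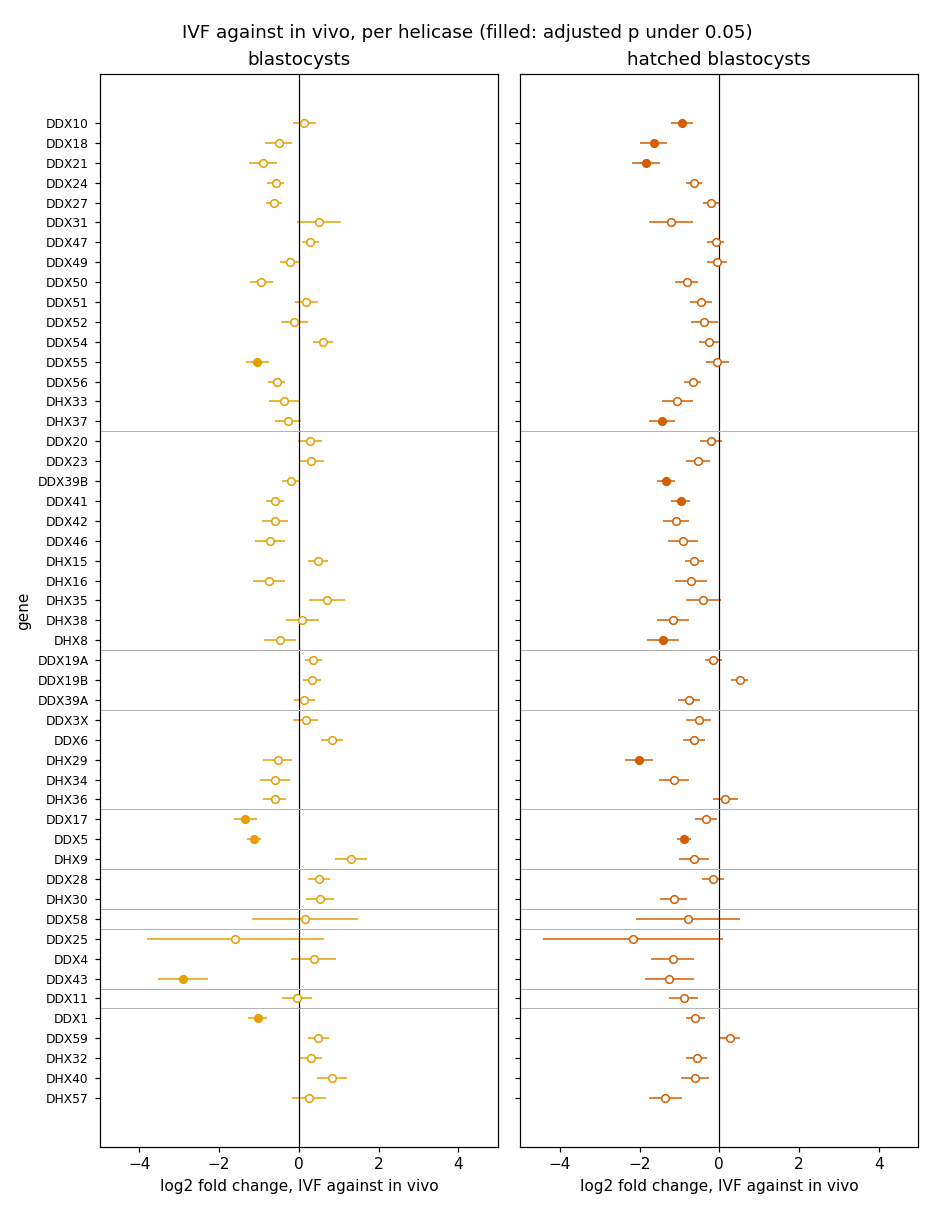
Log2 fold change of IVF against in vivo in blastocysts (left) and hatched blastocysts (right) for 50 helicases, with bars of 1 standard error; filled points have an adjusted p under 0.05. In blastocysts points lie on both sides of 0, with a median of -0.04 over the 51 tested members. In hatched blastocysts 48 of 51 lie below 0. DHX58, with 0 counts in 2 libraries of each IVF group and in both in vivo blastocyst libraries, is tested but not drawn.

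Outside the symbol pattern MOV10, an RNA helicase that acts with the silencing machinery and against retroelements, had the smallest p among the helicases outside it. It had 21, 23 and 27.7 CPM in IVF hatched blastocysts and 175 and 89.7 CPM in vivo (log2 fold change -2.44 ± 0.28, SE, adjusted p = 0.000521). IFIH1 was the helicase of that list called higher after IVF (1.79 ± 0.48, SE, adjusted p = 0.0327), with 13.3, 8.89 and 8.54 CPM against 2.3 and 3.73 CPM, while AQR was lower (-1.70 ± 0.43, SE, adjusted p = 0.0267). Among the 25 tested, 1 was higher and 3 were lower (median -0.55). Of 41 partners none was called higher and 3 were lower, GPATCH4, EIF4G1 and EIF4G2.

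In vivo, hatched blastocysts had more of 10 helicase messages than blastocysts and less of 1, of 51 tested, where 6.96% of all genes were called higher and 7.39% lower. Of the members 41 had a value above 0 and the median log2 fold change was 0.71, against -0.01 over all genes. All 11 splicing members were above 0. This comparison and that of IVF with in vivo hatched blastocysts share the in vivo hatched libraries, so the values of a member in both are set side by side only.

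DDX6, which represses and stores messages in cytoplasmic granules and lies on chromosome 9 (46025616 to 46063836), had 19.5 and 13.7 CPM in in vivo blastocysts and 54.5 and 50.9 CPM in in vivo hatched blastocysts. The 2 hatched libraries were close to each other, and the log2 fold change was 1.63 ± 0.31 (SE, adjusted p = 0.00619). It was called without library 2 as well (1.60 ± 0.35, SE, adjusted p = 0.0249). In IVF embryos it went from 24.6, 25.9 and 38.5 CPM to 31.4, 38.1 and 30.6 CPM, with overlapping ranges. DDX6 was the only member called when either library 1 of the in vivo blastocysts was left out or only the groups compared were fitted.

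DHX30 had 13.5 and 21.6 CPM before and, after hatching, 87.7 CPM in library 2 and 39.4 CPM in the unnumbered library (log2 fold change 1.82 ± 0.39, SE, adjusted p = 0.0113). DHX29 went from 25.2 and 18.5 CPM to 100 and 37.9 CPM (1.62 ± 0.41, SE, adjusted p = 0.023), and DHX57 from 8.02 and 13.4 CPM to 54.2 and 16.9 CPM (1.70 ± 0.48, SE, adjusted p = 0.0362). In these 3 genes library 2 was far above the unnumbered library, and without it the values were 1.15 for DHX30, 0.78 for DHX29 and 0.65 for DHX57, none called (adjusted p of 0.0869, 0.23 and 0.412).

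DHX9, a cofactor of transcription that unwinds RNA and DNA, had 19 and 15.9 CPM before and 56.1 and 45.6 CPM after hatching (log2 fold change 1.51 ± 0.43, SE, adjusted p = 0.0382). The DHX9 call was lost in 6 of 10 alternatives. These were the fit of all 13 libraries, the fit of the groups compared alone, and each fit without 1 in vivo library. Over all alternatives its value lay between 1.38 and 1.99. DHX15 had 93.3 and 129 CPM before and 283 and 188 CPM after (1.05, adjusted p = 0.0259), and DDX39B had 152 and 171 CPM before and 285 and 344 CPM after (0.93, adjusted p = 0.0331). DDX10 (1.27), DDX11 (1.45) and DHX40 (1.44) were the other members called higher, with adjusted p of 0.0194, 0.0378 and 0.0364. DDX17 was the member that fell, from 182 and 128 CPM to 92.9 and 55.2 CPM (log2 fold change -1.10 ± 0.31, SE, adjusted p = 0.0374). The ranges of the 2 groups were apart for all 11 called members, and also for many members not called, such as DDX18 and DDX19A. With 2 libraries in each group this adds little to the calls, and the share over all genes was not counted.

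Both in vivo hatched libraries lay above the other 8 blastocyst and hatched libraries for 17 of 52 members (32.7%), and for 9.66% of all genes. The 17 were DDX10, DDX11, DDX18, DDX23, DDX24, DDX39A, DDX39B, DDX4, DDX41, DDX56, DDX6, DHX15, DHX29, DHX30, DHX37, DHX38 and DHX57. Other measures also moved with this group. Hypoblast markers summed to 126 to 188 CPM in in vivo blastocysts, below the in vivo hatched libraries, with 5 of 7 called higher after hatching. Cumulus cell markers summed to 105 to 155 CPM in in vivo hatched blastocysts, 9.27 to 12 CPM in in vivo blastocysts and 39.9 to 184 CPM in IVF hatched blastocysts. Most of the sum in both hatched groups was CYP11A1, a steroid synthesis enzyme (75.8 and 144 CPM in vivo, and 181, 59 and 39.2 CPM after IVF), which had 0 and 0.404 CPM in in vivo blastocysts. AMH, CYP19A1, FSHR and PTX3 stood at 0.135 CPM or less in these 3 groups. VCAN had 26.2 and 10.4 CPM in in vivo hatched blastocysts and 9.27 and 5.36 CPM in in vivo blastocysts. In IVF hatched blastocysts VCAN had 1.33, 1.71 and 0 CPM. INHBA had means of 1.84, 3.06 and 0.962 CPM in these groups. All 3 cumulus markers tested lay below 0 for IVF against in vivo hatched blastocysts, with 1 called lower. Epiblast markers summed to 427 to 645 CPM, 781 to 950 CPM and 1035 to 1265 CPM in the same order, with none called between the in vivo groups. Most of each sum was POU5F1 (means of 443, 788 and 953 CPM). For IVF against in vivo hatched blastocysts, 5 of 7 epiblast rows tested lay below 0 (median log2 fold change -2.78). Of these rows 2 were called higher and 1 lower after IVF. In vivo and IVF hatched means were 5.81 and 0.827 CPM for SOX2, and 45.4 and 203 CPM for TDGF1. The part of these cell types, and of the mitochondrial share, in the helicase values was not tested. Without library 2, members called in in vivo hatching were DDX6 and DDX17, and 37 of 52 members lay above 0 with a median of 0.43.

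**Figure D4:**
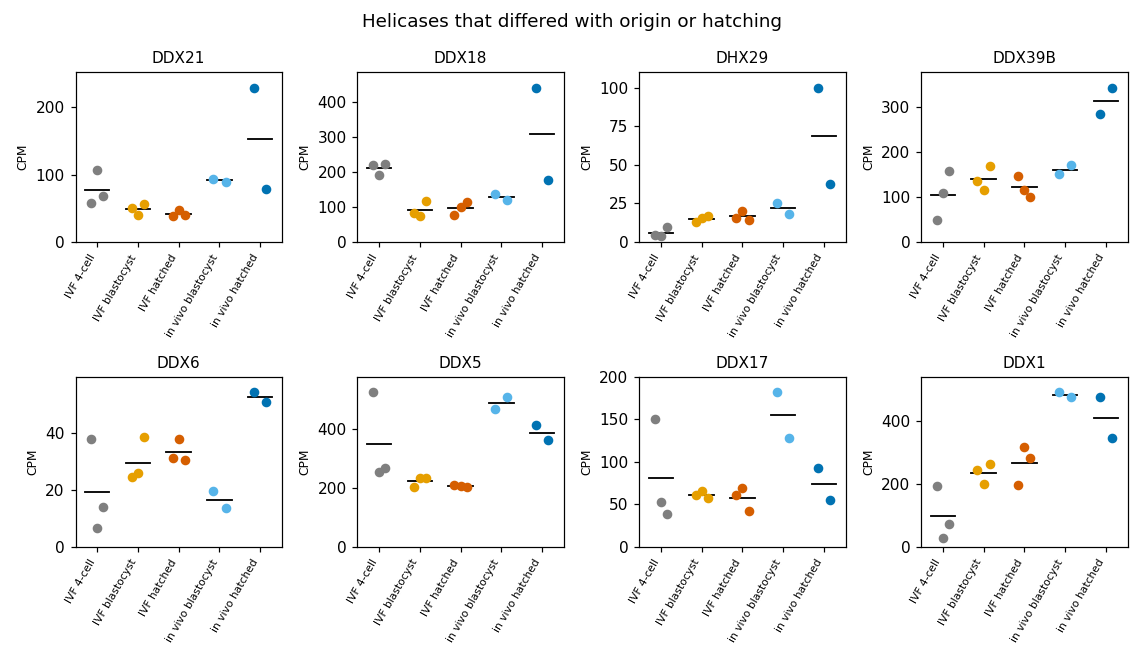
CPM (linear axes from 0) of 8 helicases called with origin or in in vivo hatching, by group; points are libraries and lines are group means. Library 2 is the left point of the in vivo hatched group and is far above the unnumbered library for DDX21, DDX18 and DHX29, while DDX39B and DDX6 have both points above the other blastocyst and hatched groups, and DDX5 and DDX1 have both in vivo groups above both IVF groups.

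Whether hatching changed a helicase differently after IVF and in vivo was tested directly. No member passed, where 4.71% of all genes did (2.79% with a more positive change after IVF and 1.93% with a more negative one), and 18 members had an unadjusted p under 0.05. DESeq2 called 5 members, DDX39B, DDX6, DHX15, DHX30 and DHX9, each with a more negative change after IVF. The smallest adjusted p by edgeR was that of DDX6 (difference of log2 changes -1.47 ± 0.39, SE, adjusted p = 0.0538), followed by DHX9 (-1.92 ± 0.55, SE, adjusted p = 0.0696) and DDX39B (-1.14 ± 0.33, SE, adjusted p = 0.0719). The median over members was -0.69, and 40 of 51 values lay below 0, against 50.2% of all genes. Of the 7 hypoblast markers 4 were called here, with a more negative change after IVF (median -2.58). So a member called in in vivo hatching and not in IVF hatching is not shown by the main edgeR fit to differ between them. Without its low-count filter edgeR did call members here, as counted in the last section. In the list of other helicases MOV10 was called here (-1.77 ± 0.40, SE, adjusted p = 0.0328), with IVF libraries at 22.4, 23.7 and 26.9 CPM before and 21, 23 and 27.7 CPM after hatching, and in vivo libraries at 42.3 and 35.4 CPM before and 175 and 89.7 CPM after.

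In all, 31 members were called in at least 1 comparison and 22 in none, when all libraries were used. Besides DDX53 the 22 were DDX20, DDX25, DDX27, DDX28, DDX31, DDX39A, DDX3X, DDX47, DDX49, DDX50, DDX51, DDX52, DDX54, DDX56, DHX32, DHX33, DHX34, DHX35, DHX36, DHX38 and DHX58. DDX47 had 99.2 to 158 CPM in blastocyst and hatched libraries and 23.7 and 21.7 CPM in 4-cell libraries 2 and 3 against 121 CPM in library 1. DHX36, which unwinds G-quadruplexes, had 11 to 26.6 CPM over all blastocyst and hatched libraries and 23.3 to 32.6 CPM in 4-cell libraries. DDX3X had 166, 223 and 246 CPM in IVF blastocysts, 201, 237 and 334 CPM in IVF hatched blastocysts, 185 and 194 CPM in in vivo blastocysts, and 506 and 247 CPM in library 2 and the unnumbered library of in vivo hatched blastocysts, with a 4-cell level of 796, 264 and 296 CPM. By group mean, 25 members were highest in in vivo hatched blastocysts, 20 in 4-cell embryos, 6 in in vivo blastocysts and 1 in IVF hatched blastocysts. In the annotation 18 of the 53 members overlap another gene, so their counts are uncertain where strand was not used.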

How the data were processed

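RNA of pooled pig embryos was sequenced as poly(A)-selected paired libraries. A single table of genes (build Sscrofa11.1) from the authors gives read counts, FPKM and TPM. The deposited counts are whole numbers without normalisation. The deposited FPKM values, scaled by the authors for length and depth, serve only to compare genes. Tools named in the submitters' processing notes are StringTie 1.3.1, RSEM, HISAT2, Bowtie2 and fastp 0.18.0, without their roles, and nothing is said of strand. The table has 39 such columns, of which 14 were left aside, namely 13 with TPM and 1 with FPKM (the in vivo hatched library whose count column has no number). By gene number, 28208 genes and all 53 members were found in RefSeq's table for that build. Positions, overlaps and neighbours come from that table. Rows without a symbol numbered 24.

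Members were found by symbol. Members, roles and gene lists were chosen with earlier results of these data known. The main test on counts was edgeR's quasi-likelihood test (edgeR 4.0.16, R 4.3.3) after TMM scaling and its low-count filter, with Benjamini-Hochberg adjustment over all genes. A gene was called at an adjusted p under 0.05. The 10 blastocyst and hatched libraries were fitted together (15528 genes, 51 members; DDX53 and DDX60 were filtered out), and the 9 IVF libraries together for the 4-cell comparison (16312 genes, 52 members). CPM values carry TMM factors over all 13 libraries. Errors of log2 fold changes are standard errors. A floor of 3 counts per library gives the lower bounds, which hold for the mean of the 4-cell libraries, and floors cover counting error only. Total counts lay between 33259311 and 39273867 per library. No replicate pair was as alike as sampling noise allows (lowest chi-square per degree of freedom 72.5), so none was merged. The fits were also run on simulated counts, drawn for each library independently from fitted dispersions. That run does not bear on calls that rest on 1 library, and its outcome is not given here. Named members were those called with the largest fold, a group mean of at least 5 CPM where the fold chose them, and DDX3X, DDX4, DDX5, DDX6, DDX21, DDX58, DHX9, DHX36 and DHX58 in every comparison. For other lists up to 3 called genes with the smallest p were named. Further genes named, chosen after their values were seen, include the other members. Alternatives were DESeq2 1.42.0, RLE factors, no filter, other sets of libraries, a replicate block and leaving out each library. Sequences of the members were not used here.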

Additional observations from a re-analysis of the deposited data

How the results depend on the processing

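Counts of called members (main values 5 for IVF against in vivo blastocysts, 9 for hatched blastocysts, 11 for in vivo hatching, 0 for IVF hatching, 0 for the difference of hatching changes and 20 for IVF blastocysts against 4-cell embryos) moved with the tool and the libraries. DESeq2 called 10, 18, 22, 0, 5 and 25, the fit without a filter 8, 16, 18, 0, 9 and 18, and the fit of all 13 libraries 0, 0, 0, 0, 0 and 22. With the groups compared alone, in vivo hatching had 1 call. Leaving out each library in turn gave 2 to 5, 1 to 13, 1 to 16, 0 to 0, 0 to 6 (at most 3 with the unnumbered library kept) and 16 to 31. The cause of these shifts was not tested beyond the libraries named. RLE factors called 5, 10, 11, 0, 0 and 20. Replicate numbers did not pair the libraries: correlations of the deviations of same-numbered libraries lay between -0.248 and 0.043, and the unnumbered library, number 1 only by elimination, was left out of the block. With a replicate block 4, 7, 9, 0, 0 and 18 members were called, and under the block 2 uncalled values changed sign, DDX3X in blastocysts (-0.01) and DHX36 in hatched blastocysts (-0.12). Leaving out 1 library changed the sign of some log2 values not called with all libraries, or brought them to 0.00 (DHX58 in blastocysts), given here from the lowest to the highest. For IVF against in vivo they were DDX58 (-0.83 to 8.14) and DHX58 (0.00 to 9.06) in blastocysts, and DDX3X (-0.75 to 0.07, and -0.94 without the unnumbered library) and DHX36 (-0.04 to 0.25) in hatched blastocysts. For in vivo hatching it was DDX21 (-0.24 to 0.78, and 1.29 without the unnumbered library). For IVF hatching they were DDX4 (-0.12 to 0.38), DDX58 (-0.28 to 0.79), DHX36 (-0.23 to 0.09) and DHX58 (-8.49 to 4.15). For the difference of hatching changes they were DDX21 (-1.06 to 0.02, and -1.51 without the unnumbered library) and DDX58 (-8.92 to 0.03), and for blastocysts against 4-cell embryos DHX9 (-0.42 to 0.45). Of these extremes, DDX58 at 8.14 and -8.92, both without library 2 of the in vivo blastocysts, were called (adjusted p of 0.0391 and 0.0494), as was DDX21 at 1.29 and -1.51. Of all alternative values of named members, 776 kept direction and side of the threshold, 111 lost their call, 36 gained it and 20 changed sign. The 776 include values not called in the main fit, which had no call to lose. Outside the 4-cell comparison every call of a named member was lost in 1 to 7 of its 10 or 11 alternatives. Without TMM factors 124 of the levels moved by less than 1 SD and 16 by more. FPKM is another unit, so it gives no alternative level. With 33259311 counts or more per library, values near 0.1 CPM rest on a few counts.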
